A study of Homo sapiens with 8 samples.

Results

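Oleate loading of HepG2 cells was set against untreated HepG2 cells on 3 of the 8 microarrays of the study, those whose labels name lipid-loaded cells with no added compound. HepG2 is an established human hepatoblastoma line that serves as a model of hepatocytes. The lipid-loaded cells had been given 400 µM oleate on fatty acid-free albumin, at a ratio of 6.6, for 24 h in DMEM with 10% fetal bovine serum. They were then washed and held for a further 24 h in serum-free medium with no compound. A separate label names oleate together with palmitate, and which of these was used is not settled by the labels. The other 5 arrays held cells loaded in the same manner and then given 100 µM fenofibrate (3 arrays) or 1 mM linalool (2 arrays) during the serum-free period. Fenofibrate is a lipid-lowering drug whose acid form activates the nuclear receptor PPARα, and linalool is a monoterpene alcohol of plant oils. Untreated cells were the other channel of all 8 arrays, and the labels do not say whether they also spent time without serum.

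Oleate, the commonest monounsaturated fatty acid of the diet, is taken up by hepatocytes, coupled to coenzyme A, esterified to triglyceride and stored in lipid droplets under a coat of perilipins. Fatty acids also bind PPARα, which controls genes of mitochondrial and peroxisomal oxidation, and unsaturated fatty acids restrain SREBP-1, the factor that controls fatty acid synthesis. Saturated fatty acids such as palmitate are known to stress the endoplasmic reticulum of liver cells, and oleate is known to oppose that stress.

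Each array gave, for every probe, 1 deposited log2 ratio between lipid-loaded and untreated RNA, so a gene has 3 values here and no separate level in either kind of cell. The untreated RNA carried Cy5 and the RNA of the loaded cells Cy3 on all arrays, with no dye swap. An effect of the dyes on a gene therefore cannot be told apart from one of loading. The labels do not give the numerator of the ratio. The base of the logarithm and the centring could be read from the values, but the direction stays unknown. Ratios are therefore called positive or negative as deposited, and none is read as higher or lower expression in loaded cells. Each ratio was tested against 0, which leaves out the spread of the untreated cells. The labels call the replicates biological without saying that they were separate cultures, so the p-values measure only the spread between these arrays. Fewer cells and less RNA per cell cannot be told apart in bulk RNA. Spot intensities were not analysed here, so whether a probe stood above background was not tested.

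Of 18819 genes tested, 6555 (34.8%) were called at a limma adjusted p under 0.05, 4537 (24.1%) of them positive and 2018 (10.7%) negative. Positive ratios were 69.2% of the calls, and 57.7% when each array was centred on its median. Called ratios were small: the median size was 0.67 on the log2 scale, and 258 called genes, 25 positive and 233 negative, reached a size of 1. The 3 arrays gave the same sign for 12456 genes (66.2%). Without lipid-loaded replicate 1, the array with the widest spread (SD over genes 0.69, against 0.56 and 0.52 on the other 2), no gene was called, with 5898 genes at an unadjusted p under 0.05. No gene was called when the arrays were scaled to the same spread either, with 6056 genes at an unadjusted p under 0.05. The ratio on each array is therefore given below for the genes described.

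The ratios of the lipid-loaded arrays did not form 1 group around 0. The density of genes had 2 peaks on each of these arrays, at −0.47 and 0.78 on replicate 1, at −0.18 and 0.49 on replicate 2 and at −0.03 and 0.51 on replicate 3, with a clear trough on replicate 1 and shallow ones on the other 2. Each of the other 5 arrays had 1 peak. A set of 320 broadly expressed genes (cytosolic and mitochondrial ribosomal proteins, proteasome, translation factors, splicing factors and aminoacyl-tRNA synthetases) sat in the upper peak, with medians of 0.93, 0.59 and 0.60 on the 3 arrays. Olfactory receptor genes, which hepatocytes hardly use, had medians of −0.40, −0.29 and −0.25. Of the 320 broadly expressed genes, 242 (75.6%) were called positive, against 24.1% of all genes. Shares called positive in the lists below can be set beside both values. The deposited values were centred by 1 constant per array, so the 0 of the ratio is a choice of centre, and it fell between the 2 peaks. A second centring, added after the densities had been seen, set the median of the broadly expressed genes to 0 on every array and moved the mean of the 3 arrays by 0.71. With it, 3 genes (0.0159%) were called positive and 10756 (57.2%) negative. All 2018 genes called negative as deposited were also called negative after the second centring. Since it lowers every ratio on the lipid-loaded arrays, this is no separate check of those genes. Of the 4537 genes called positive as deposited, 2954 had a negative ratio after it, and none of the 4537 was called negative. List medians are given with both centrings, and for the broadly expressed lists a value near 0 after the second one is by construction.

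**Figure D1:**
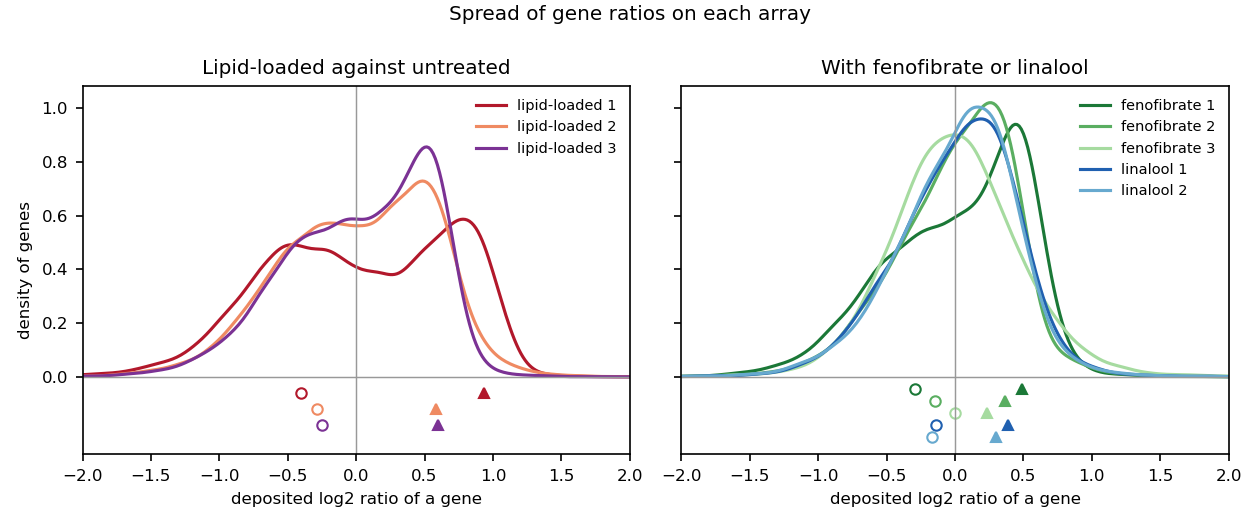
Density of genes (y axis) over the deposited log2 ratio (x axis) on the 3 lipid-loaded arrays (left) and on the 5 arrays with fenofibrate or linalool (right). Below the curves, filled triangles mark the median of 320 broadly expressed genes and open circles the median of 296 olfactory receptor genes on the same array; on the lipid-loaded arrays the triangles lie at 0.93, 0.59 and 0.60 and the circles at −0.40, −0.29 and −0.25.

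**Figure D2:**
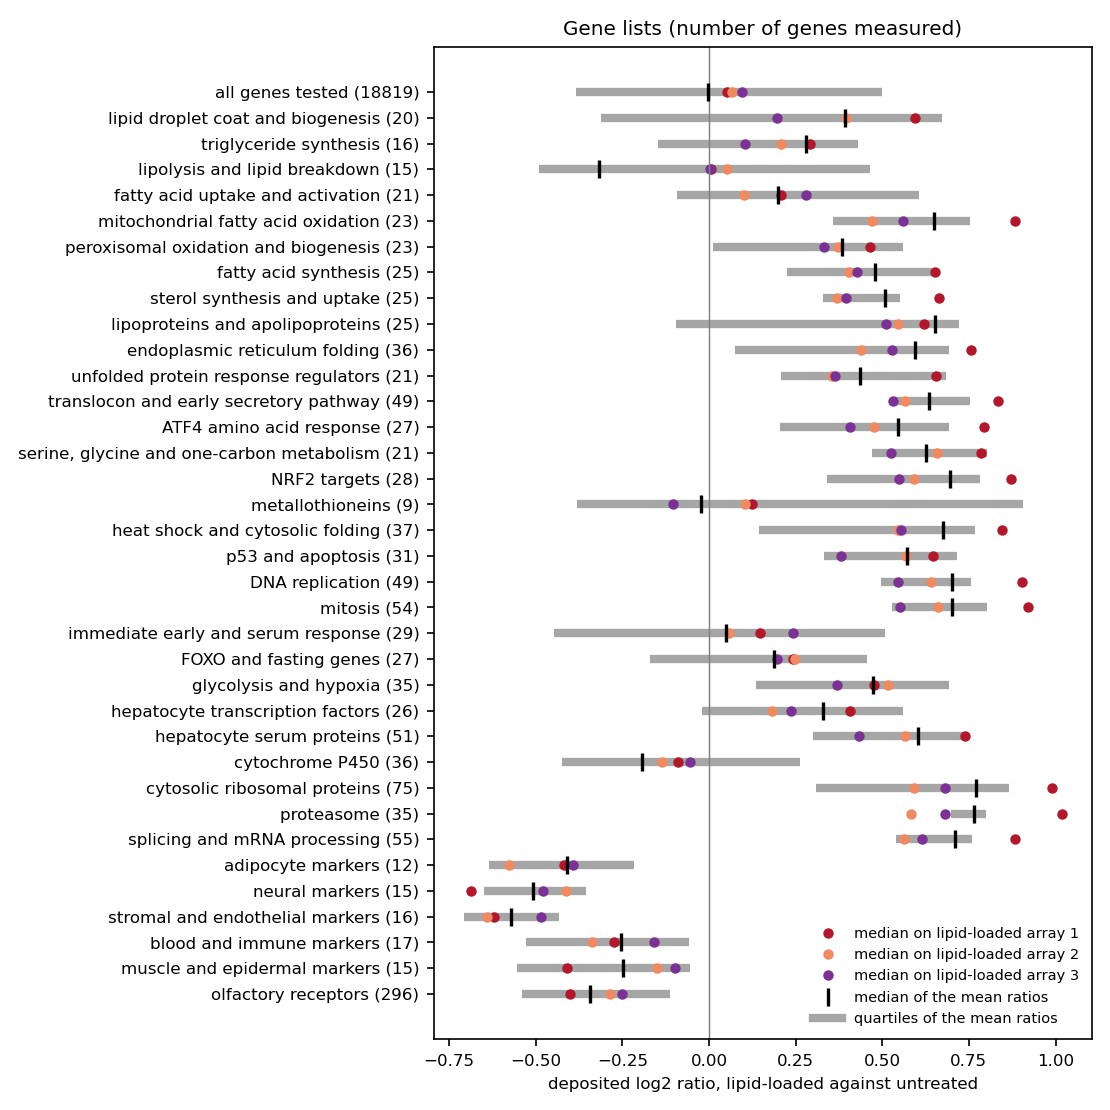
Median deposited log2 ratio (x axis) of gene lists and of all genes tested (y axis, number of genes measured in brackets), with a point for each lipid-loaded array, a black tick for the median of the mean ratios and a grey bar between its quartiles. Folding and growth lists lie to the right of all genes, towards the cytosolic ribosomal proteins at 0.77, as do the metabolic lists other than lipolysis at −0.32 and cytochrome P450 at −0.19, and marker lists of other cell types lie to the left.

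The lipid droplet list held 20 measured genes of droplet coats and droplet formation. Of these, 8 (40%) were called positive, against 24.1% of all genes, and 0 negative. The list median was 0.39, against −0.0032 over all genes, and −0.31, against −0.71, after the second centring, so its sign depends on the centring. PLIN2, the perilipin that coats droplets of hepatocytes and is stabilised by stored lipid, had ratios of 1.05, 0.93 and 0.86. Its mean was 0.95 (SE 0.17, n = 3, limma adjusted p = 0.0135), which ranked 58 from the highest of 18819 genes. The 3 arrays lay close together, and PLIN2 remained positive, at 0.24, but not called (adjusted p = 0.180) after the second centring. PLIN3, a perilipin that moves from the cytosol to new droplets, had ratios of 0.98, 0.80 and 0.68. FITM2, a membrane protein that helps droplets bud, had 0.89, 0.50 and 0.85. AUP1, a droplet protein that recruits ubiquitin-conjugating enzymes, had 0.89, 0.62 and 0.67. CIDEC, which fuses droplets, had 0.82, 0.80 and 0.37. All 5 genes were positive on every array and were called, with adjusted p from 0.0135 to 0.0263. G0S2, an inhibitor of the main droplet lipase, lay on the other side on all 3 arrays, at −0.40, −0.54 and −0.46. It just missed the threshold (adjusted p = 0.0525). With fenofibrate replicate 3 left out of the fit, the limma adjusted p of G0S2 was 0.0468.

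Of 16 measured genes of triglyceride synthesis, 4 (25%) were called positive and 1 negative, the positive share close to the 24.1% of all genes. GPAM, the mitochondrial acyltransferase that starts glycerolipid synthesis, had ratios of 0.63, 0.88 and 0.07 (mean 0.53, adjusted p = 0.0482). AGPAT1, which adds the second acyl chain, had 0.63, 1.04 and 0.18 (mean 0.61, adjusted p = 0.0265). Both stood lowest on replicate 3. DGAT1 and DGAT2, the unrelated enzymes that make triglyceride from diacylglycerol, had means of 0.50 and 0.56, with adjusted p of 0.0303 and 0.0216. LPIN1, the phosphatase before that step, was mixed in sign at 0.54, −0.08 and 0.52 and was not called (adjusted p = 0.178). AGPAT4, a related acyltransferase best known from brain, was called negative at −1.37, −0.57 and −0.39. The list median was 0.28 as deposited and −0.43 after the second centring.

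Among 15 genes of lipolysis and lipid breakdown, 3 (20%) were called positive and 1 negative, below the 24.1% and 10.7% of all genes. The called positive ones were CES1 and CES2, carboxylesterases of the endoplasmic reticulum, and LIPA, the acid lipase of lysosomes, with means of 0.64, 0.72 and 0.67. PNPLA2, the main triglyceride lipase of droplets, had ratios of 0.21, 0.85 and 0.64, and missed the threshold (adjusted p = 0.0587). The neutral lipases that follow it did not pass either. LIPE, the hormone-sensitive lipase, had 0.01, −0.55 and −0.75 (adjusted p = 0.0705), and MGLL, the monoglyceride lipase, had −0.28, 0.28 and −1.01 (adjusted p = 0.277). LPL, the lipase that hydrolyses lipoprotein triglyceride outside cells, was negative on every array at −0.95, −0.54 and −1.40. Its mean of −0.96 (SE 0.20, adjusted p = 0.0135) was called. The median of the mean ratios was −0.32, while the medians on the single arrays were 0.0061, 0.05 and 0.0026, so the 2 summaries differ in sign. After the second centring the median was −1.02.

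Fatty acid uptake and activation had 21 measured genes, of which 8 (38.1%) were called positive and 1 (4.76%) negative, against 24.1% and 10.7% of all genes. The list median was 0.20 as deposited and −0.51 after the second centring. FABP1, the abundant fatty acid binding protein of liver, had ratios of 0.91, 0.51 and 0.82. FABP5, a binding protein with a wide tissue range, had 1.00, 0.75 and 0.80. ACSL1, which couples long-chain fatty acids to coenzyme A, had 0.92, 0.61 and 0.65, and DBI, which binds the product, had 0.98, 0.46 and 0.73. These 4 genes were called, with adjusted p from 0.0135 to 0.0168. FABP4, the binding protein of adipocytes and macrophages, was called negative at −0.62, −0.60 and −0.75. CD36, a fatty acid transporter, lay near the median of all genes at −0.25, 0.09 and −0.23 (adjusted p = 0.503).

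**Figure D3:**
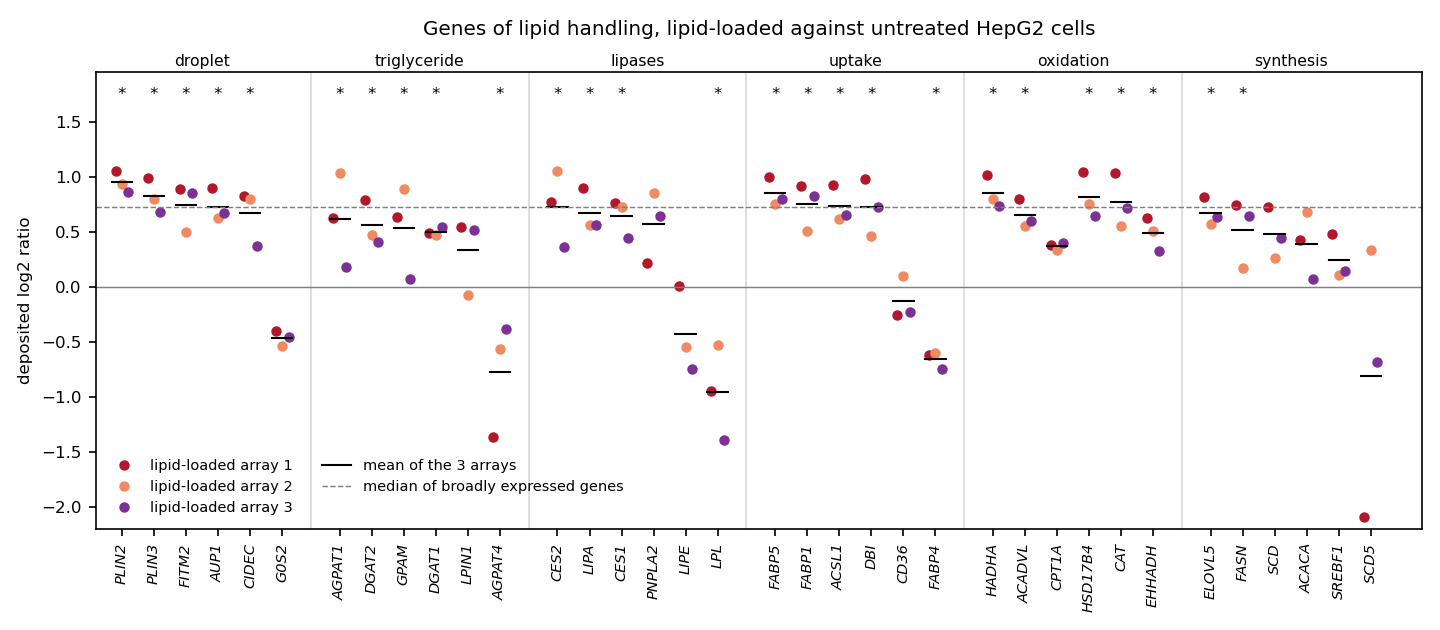
Deposited log2 ratio (y axis) of genes of lipid handling on each lipid-loaded array (points), with the mean (bar), grouped by role along the x axis; an asterisk marks a called gene. The dashed line is the median of the broadly expressed genes, 0.72, and the called positive genes shown have means from 0.49 (EHHADH) to 0.95 (PLIN2), while LPL, FABP4 and AGPAT4 are called below 0.

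Mitochondrial fatty acid oxidation had 14 of 23 measured genes (60.9%) called positive and 0 negative, against 24.1% and 10.7% of all genes. The list median was 0.65 as deposited and −0.06 after the second centring. The trifunctional protein genes HADHA and HADHB, whose product carries out the last steps of each oxidation round, had means of 0.85 and 0.76. ETFB, which passes electrons from the dehydrogenases on, had ratios of 0.98, 0.77 and 0.76. DECR1, a reductase needed to oxidise polyunsaturated fatty acids, had 1.18, 0.53 and 0.70. ACADVL, the dehydrogenase of very long chains, had a mean of 0.65. CPT1A, the gate through which fatty acids enter mitochondria, averaged 0.37, 0.33 and 0.40 over its probes and was not called (adjusted p = 0.103). Its 2 probes had means of 0.10 and 0.63, the second close to the list median. ACADL, a long-chain dehydrogenase, was the lowest of the list at −1.15, 0.04 and −1.12 (adjusted p = 0.0666).

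Of 23 peroxisomal genes 10 (43.5%) were called positive and 0 negative, against 24.1% and 10.7% of all genes. The list median was 0.38 as deposited and −0.32 after the second centring. DECR2, the peroxisomal reductase for unsaturated fatty acids, had ratios of 1.03, 0.88 and 0.63. HSD17B4, a multifunctional oxidation enzyme, had 1.04, 0.75 and 0.65, and CAT, the catalase that removes the hydrogen peroxide formed, had 1.03, 0.55 and 0.71. EHHADH, a classical PPARα target in rodents, had 0.62, 0.51 and 0.33 (mean 0.49, adjusted p = 0.0316). PEX11G, a peroxisome division gene, had the lowest mean at −0.36 and was not called (adjusted p = 0.221).

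The gene of PPARα itself and 2 of its fatty acid responsive targets were not called. These 2 do not stand for all genes under PPARα, and its part in any result was not tested. Of the oxidation genes above, EHHADH was called positive and CPT1A was not called (limma adjusted p = 0.103). PPARA had ratios of 0.42, 0.13 and 0.42 (mean 0.33, adjusted p = 0.129). PDK4, the kinase that spares glucose by switching off pyruvate dehydrogenase, had −0.41, −0.25 and −0.15, and ANGPTL4, an inhibitor of LPL, had −0.43, −0.19 and −0.11. Both were negative on every array without being called (adjusted p = 0.356 and 0.261). With fenofibrate added, ANGPTL4 had ratios of 0.13, 0.40 and 0.78, and the lipid-loaded minus fenofibrate difference was −0.68 (SE 0.24, unadjusted p = 0.0163, adjusted p = 0.472). The difference did not pass, and the highest fenofibrate value of ANGPTL4 came from replicate 3. That array correlated poorly with the mean of the others (r = 0.127).

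Of 25 genes of fatty acid synthesis 13 (52%) were called positive and 2 (8%) negative, against 24.1% and 10.7% of all genes. The list median was 0.48 as deposited and −0.23 after the second centring. TECR and HACD3, which complete each round of chain elongation, had means of 0.76 and 0.77. FASN, the fatty acid synthase, had ratios of 0.74, 0.17 and 0.64 (mean 0.52, adjusted p = 0.0423). SCD, the desaturase that makes oleate from stearate, had 0.72, 0.26 and 0.45 and missed the threshold (mean 0.48, adjusted p = 0.0524). SREBF1, which encodes the main transcription factor of the pathway, had a mean of 0.24 (adjusted p = 0.288). SCD5, a second desaturase, spread from −2.09 to 0.33 over the arrays. The 2 called negative genes were ME1, a supplier of NADPH, and ELOVL4, an elongase of very long chains, with means of −0.72 and −0.77. ELOVL4 was named after its value had been seen. Of 25 sterol genes 10 (40%) were called positive and 0 negative, and 23 had a positive mean (median 0.51 as deposited, −0.20 after the second centring). MSMO1, a late enzyme of cholesterol synthesis, had ratios of 1.04, 0.93 and 0.67, NPC2, which moves cholesterol out of lysosomes, 0.98, 0.59 and 0.69, and HMGCS1, an early enzyme, 0.74, 0.37 and 0.39. All 3 were called, with adjusted p from 0.0135 to 0.0425.

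Lipoprotein genes had 15 of 25 (60%) called positive and 0 negative, against 24.1% and 10.7% of all genes. The list median was 0.65 as deposited and −0.06 after the second centring. APOA1, the structural protein of high-density lipoprotein, had ratios of 1.11, 0.94 and 0.91, from probes that agreed in sign. Its mean of 0.99 (SE 0.15, adjusted p = 0.0135) ranked 32 from the highest. APOA2 had 1.05, 0.55 and 0.85, and APOC3, an inhibitor of lipoprotein clearance, 0.92, 0.70 and 0.72. APOB, the backbone of very low-density lipoprotein, had 0.87, 0.59 and 0.56, and MTTP, which loads lipid onto it, had 0.89, 0.78 and 0.61. APOD, a lipocalin of other tissues, had the lowest mean of the list, −0.61, and was not called (adjusted p = 0.0773).

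Secretory proteins such as these fold in the endoplasmic reticulum, and 3 sensors (encoded by ERN1, EIF2AK3 and ATF6) report unfolded protein there. ATF6 and the spliced product of XBP1 act on chaperone genes through the endoplasmic reticulum stress response element, ERSE. The element was searched as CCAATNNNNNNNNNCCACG on both strands in the RefSeq promoters (GRCh38.p14, 250 bases before to 50 after the start). It was found in 7 of 33 folding genes with a promoter sequence (21.2%) against 27 of 35116 promoters in all (0.0769%) and 0.0916% of all genes with a promoter. Among the folding genes called positive, 4 of 20 held it (20%), so the share was no higher than in the whole list. The windows below show it, in capitals, in the 4 folding genes called positive that hold it and in 2 that were not called, HSPA5 and HSP90B1, which were added after their values had been seen. The seventh, ERO1B, an oxidase of disulphide formation, was not called either (mean −0.35, adjusted p = 0.129).
CALR, chr19:12938364-12938422, plus strand, element on the opposite strand: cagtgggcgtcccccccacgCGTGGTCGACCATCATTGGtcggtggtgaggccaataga
CANX, chr5:179698758-179698816, plus strand: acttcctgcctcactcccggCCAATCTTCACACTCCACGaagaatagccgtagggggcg
CRELD2, chr22:49918534-49918592, plus strand, element on the opposite strand: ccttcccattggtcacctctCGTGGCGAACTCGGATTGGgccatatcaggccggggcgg
PDIA6, chr2:10812833-10812891, minus strand: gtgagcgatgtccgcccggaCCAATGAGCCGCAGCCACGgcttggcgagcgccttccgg
HSPA5, chr9:125241371-125241429, minus strand: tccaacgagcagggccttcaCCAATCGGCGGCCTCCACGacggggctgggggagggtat
HSP90B1, chr12:103930196-103930254, plus strand: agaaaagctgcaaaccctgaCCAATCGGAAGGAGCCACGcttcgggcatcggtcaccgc
Each window runs 5′ to 3′ along the gene's own strand and ends before the start of the gene. A match of letters describes the sequence and is no measured site.

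Of 36 endoplasmic reticulum folding genes, 21 (58.3%) were called positive and 0 negative, against 24.1% and 10.7% of all genes. The list median was 0.59 as deposited and −0.11 after the second centring. CALR, the calcium-binding chaperone of glycoproteins, had ratios of 1.11, 1.54 and 0.68 (mean 1.11, SE 0.20, adjusted p = 0.0135). CANX, its membrane-bound partner, had 0.88, 0.68 and 0.50, CRELD2, a disulphide isomerase, 0.95, 0.40 and 0.51, and PDIA6, another isomerase, 0.84, 0.41 and 0.55. These 4 genes carry the element shown above and were called. HSPA5, which encodes the BiP chaperone and is the classical reporter of reticulum stress, carries it as well, but its ratios were 0.14, −0.07 and −0.39 (mean −0.11, adjusted p = 0.664). After the second centring it was called negative, at −0.81. HSP90B1, which encodes GRP94, averaged 0.07, −0.32 and 0.11 (mean −0.05, adjusted p = 0.839), but its 2 probes disagreed, with means of −0.68 and 0.58. The second probe lies at the list median, so the value of HSP90B1 is uncertain. PPIB, a prolyl isomerase of the reticulum, had 0.99, 1.21 and 0.41, and PDIA4 had 0.82, 0.51 and 0.54. ERP44 had the lowest mean, −0.62 (adjusted p = 0.147).

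Among 21 regulators of the unfolded protein response 9 (42.9%) were called positive and 0 negative (median 0.44 as deposited, −0.27 after the second centring). EIF2AK3, the sensor kinase PERK, had ratios of 0.78, 0.66 and 0.85 (mean 0.76, adjusted p = 0.0144). ATF6 had 0.46, 0.39 and 0.55 (mean 0.47, adjusted p = 0.0413). ERN1, the sensor IRE1, had −0.23, −0.46 and 0.04 (adjusted p = 0.415), so the 3 sensors did not share a sign. XBP1 had 0.91, 1.00 and 0.37, with spliced and unspliced forms not separated here. CREB3L3, a liver factor of the same membrane-bound type that acts on triglyceride genes, had 0.94, 1.08 and 0.66 (mean 0.89, adjusted p = 0.0135). The translocon and early secretory pathway had 37 of 49 genes (75.5%) called positive and 0 negative. The positive share was 24.1% over all genes and 75.6% over the broadly expressed genes. The list median was 0.64 as deposited and −0.07 after the second centring. RPN1 and RPN2, subunits of the enzyme that adds sugar chains to new proteins, had means of 0.89 and 0.86.

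PERK also acts through ATF4, the factor of the amino acid response, whose target genes carry a composite site for ATF4 and a CEBP partner. The site was searched as TGATGNAA on both strands in the same promoters. It was found in 9 of 24 amino acid response genes with a promoter sequence (37.5%), against 3.62% of all promoters and 4.46% of all genes with a promoter. Among the genes called positive, 4 of 13 held it (30.8%), so the share was no higher than in the whole list. The called holders were ASNS, SLC1A5, CEBPG and SLC3A2. Those not called were ATF3, CHAC1, FGF21, SLC1A4 and SLC7A1, with means of 0.02, −0.14, −0.34, 0.21 and −0.52. Another 3 motifs were searched in the same way. The E2F core (TTTCGCGC or TTTGGCGC) was in 27.9% of replication genes, against 1.40% of all genes, the sterol regulatory core (CACCCCAC) in 4.35% of sterol genes, against 3.39%, with 0 of its genes called, and the antioxidant core (TGACNNNGC) in 33.3% of NRF2 targets, against 16.1%. The 3 windows show called positive genes with the site, in capitals, ahead of the gene's start.
ASNS, chr7:97872449-97872496, minus strand: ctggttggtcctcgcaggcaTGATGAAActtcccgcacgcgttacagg
SLC1A5, chr19:46784884-46784931, minus strand: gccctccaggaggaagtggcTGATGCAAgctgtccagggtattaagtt
CEBPG, chr19:33374051-33374098, plus strand: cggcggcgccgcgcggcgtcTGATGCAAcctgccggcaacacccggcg
Of 27 genes of this response 15 (55.6%) were called positive and 0 negative, against 24.1% and 10.7% of all genes. The list median was 0.55 as deposited and −0.16 after the second centring. ASNS, the asparagine synthetase, had ratios of 1.55, 1.09 and 0.89 (mean 1.18, SE 0.24, adjusted p = 0.0135) and ranked 8 from the highest of all genes. SLC1A5, a glutamine transporter, had 0.97, 0.55 and 0.46, and CEBPG, a partner of ATF4, had 0.66, 0.70 and 0.46. SLC3A2, the shared chain of several amino acid exchangers, had 1.13, 1.20 and 0.32, and DDIT4, an inhibitor of mTORC1, had 0.85, 1.16 and 0.41. TRIB3, a pseudokinase induced late in the response, had 0.87, 0.84 and 0.18, and ATF4 itself 0.79, 0.47 and 0.29. DDIT3, which encodes the death-promoting factor CHOP, had 0.65, 0.39 and 0.54 and was not called (mean 0.53, adjusted p = 0.0674). With fenofibrate replicate 3 left out of the fit, the limma adjusted p of DDIT3 was 0.0176. SLC7A1, a cationic amino acid transporter that also holds the site, ran from −2.32 on replicate 2 to 0.86 on replicate 1.

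Serine, glycine and one-carbon metabolism, which ATF4 also controls, had 14 of 21 genes (66.7%) called positive and 0 negative. Over all genes the shares were 24.1% and 10.7%. The list median was 0.63 as deposited and −0.08 after the second centring. PHGDH, PSAT1 and SHMT2 make serine and turn it to glycine, and MTHFD2 oxidises the carbon unit in mitochondria. MTHFD2 had ratios of 1.46, 0.88 and 0.75 (mean 1.03, SE 0.18), PSAT1 had 1.39, 0.87 and 0.81 (mean 1.03, SE 0.16) and PHGDH had 1.15, 0.86 and 0.74 (mean 0.92, SE 0.17). Each of the 3 had an adjusted p of 0.0135 and was above the median of the broadly expressed genes on every array. After the second centring MTHFD2 and PSAT1 stood at 0.32 with adjusted p of 0.0684 and 0.0674, so neither was called.

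**Figure D4:**
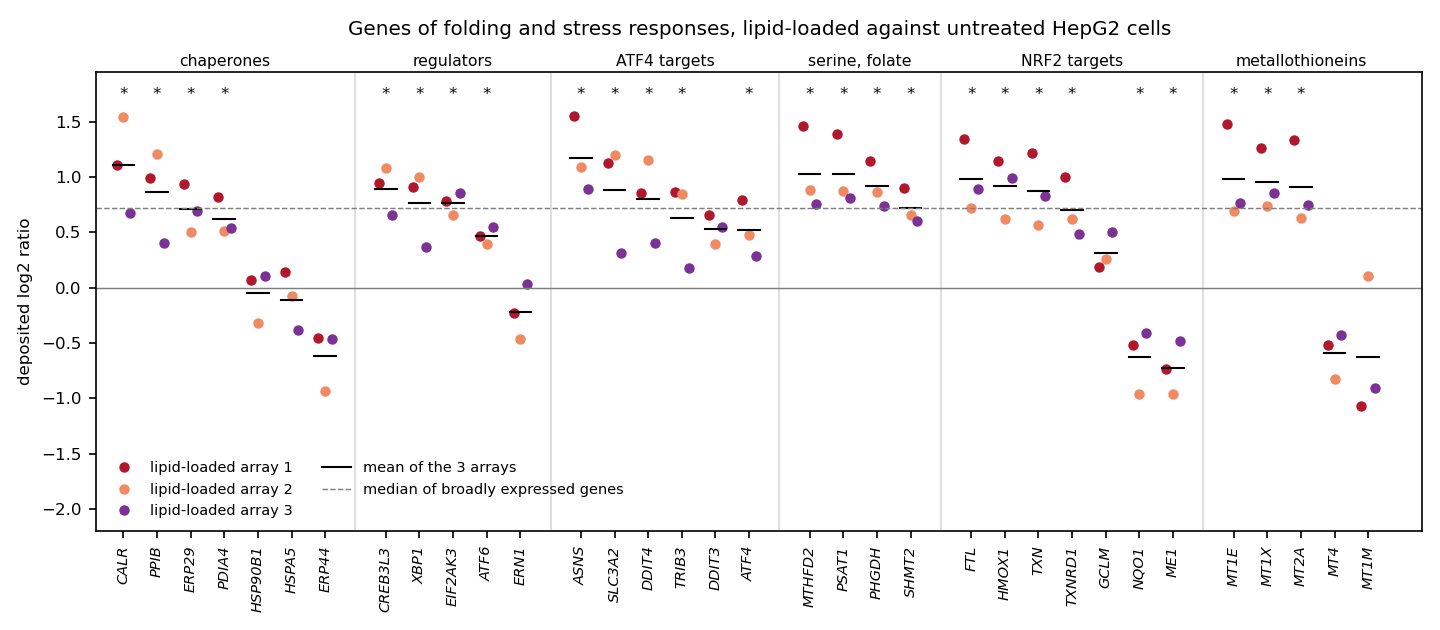
Deposited log2 ratio (y axis) of genes of folding and stress responses on each lipid-loaded array (points), with the mean (bar), grouped along the x axis; an asterisk marks a called gene. The dashed line is the median of the broadly expressed genes, 0.72: ASNS, CALR, MTHFD2 and PSAT1 have means above 1, HSPA5 and HSP90B1 (the mean of 2 opposed probes) lie near 0, and NQO1 and ME1 are called below 0.

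NRF2, the factor of the oxidative stress response, had 19 of 28 listed targets (67.9%) called positive and 2 (7.14%) negative. Over all genes the shares were 24.1% and 10.7%. The list median was 0.70 as deposited and −0.01 after the second centring. HMOX1, the haem-degrading enzyme, had ratios of 1.14, 0.62 and 0.99 (mean 0.92, adjusted p = 0.0150). FTL, the light chain of the iron store ferritin, had 1.34, 0.72 and 0.89, TXN, thioredoxin, 1.22, 0.57 and 0.83, and its reductase TXNRD1 1.00, 0.62 and 0.48. NQO1, the quinone reductase often used as the reporter of NRF2, was called with the opposite sign, at −0.51, −0.96 and −0.41 (mean −0.63, adjusted p = 0.0290). ME1, listed both here and under fatty acid synthesis, had −0.73, −0.96 and −0.48. GCLM, a subunit of the enzyme that limits glutathione synthesis, had 0.18, 0.26 and 0.50 (adjusted p = 0.130). As deposited, the list thus held called genes of both signs.

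Metallothioneins, which bind zinc and copper, divided. MT1E had ratios of 1.48, 0.70 and 0.77, MT1X 1.26, 0.74 and 0.85 and MT2A 1.34, 0.63 and 0.75. These 3 of 9 genes (33.3%) were called positive, against 24.1% of all genes (list median −0.02 as deposited, −0.73 after the second centring). MT1M at −1.07, 0.10 and −0.91 and MT4, an isoform of squamous epithelium, at −0.51, −0.82 and −0.43 were not called. Metallothionein genes are near-identical in sequence, so probes may read more than 1 of them and single values are uncertain. Heat shock and cytosolic folding genes had 24 of 37 (64.9%) called positive and 2 (5.4%) negative, against 24.1% and 10.7% of all genes. The list median was 0.68 as deposited and −0.03 after the second centring. HSPD1, the mitochondrial chaperonin, had 1.18, 0.80 and 0.88, and HSP90AB1, the constitutive cytosolic HSP90, 1.09, 0.84 and 0.72. HSPA1A, the heat-inducible HSP70, had 0.78, 0.60 and 0.65, and shares nearly all its sequence with a neighbouring copy. HSPA2, the testis-enriched HSP70, was called negative at −0.99, −0.80 and −1.06.

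BAX, which opens the outer mitochondrial membrane in apoptosis, had ratios of 1.32, 1.37 and 1.28 (SD 0.05, n = 3). One of its 2 probes had 1.27, 1.65 and 1.30 and the other 1.36, 1.10 and 1.27, so the even mean hides a gap between probes on replicate 2, and both were above 1 on every array. The mean of 1.32 (SE 0.19, adjusted p = 0.0135) ranked 4 from the highest, and BAX was 1 of the 3 genes still called positive after the second centring (0.62, adjusted p = 0.0269). The other 2 were RCN2 and CYP1A2. With fenofibrate BAX had ratios of 0.27, −0.71 and 0.13, and with linalool −0.09 and 0.07. The lipid-loaded minus fenofibrate difference was 1.42 (SE 0.27, unadjusted p = 2.67e-04, adjusted p = 0.472), and the lipid-loaded minus linalool difference was 1.34 (SE 0.31, unadjusted p = 0.00105, adjusted p = 0.325). Of 31 p53 and apoptosis genes, 17 (54.8%) were called positive and 0 negative, against 24.1% and 10.7% of all genes. The list median was 0.57 as deposited and −0.14 after the second centring. CDKN1A, the cell cycle inhibitor that p53 induces, had 0.91, 0.90 and 0.36, and BAD, another death-promoting family member, had 0.98, 0.77 and 0.71.

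Genes of cell division were almost all positive as deposited. All 49 genes of DNA replication had a positive mean and 33 (67.35%) were called. Over all genes 24.1% were called positive, and over the broadly expressed genes 75.6%. Of 54 mitosis genes, 53 had a positive mean and 42 (77.8%) were called. Both lists had a median of 0.70 as deposited, and −0.0054 and −0.0052 after the second centring, the level of the broadly expressed genes. PCNA, the sliding clamp of replication, had ratios of 1.33, 0.74 and 0.77, TK1, thymidine kinase, 1.04, 1.29 and 0.55 and TYMS, thymidylate synthase, 1.21, 0.80 and 0.69. Among mitosis genes TPX2, a spindle factor, had 1.22, 1.07 and 0.53 and CCNB1, cyclin B, 1.08, 0.64 and 0.79. UBE2C, a ubiquitin-conjugating enzyme of the anaphase complex, was the 1 mitosis gene below 0 (mean −0.02, adjusted p = 0.946), the mean of probes at −0.85 and 0.81. SKP2, which marks the inhibitor p27 for breakdown, had 1.58, 0.79 and 0.86 and was among the 15 largest positive genes. CDKN2A, the gene of the inhibitor p16, was called negative at −0.93, −1.04 and −0.69.

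Because loaded cells had been without serum, 2 lists that respond to serum and to fasting were read beside these. Of 29 immediate early and serum response genes 6 (20.7%) were called positive and 3 (10.3%) negative, near the 24.1% and 10.7% of all genes (median 0.05 as deposited, −0.66 after the second centring). MYC had ratios of 0.91, 0.58 and 0.68 (adjusted p = 0.0372). EGR1 was mixed at 0.07, −0.40 and 0.47 (adjusted p = 0.905), whereas its relative EGR3 was called negative at −1.12, −1.21 and −1.57. Of 27 FOXO and fasting genes 5 (18.5%) were called positive and 0 negative (median 0.19 as deposited, −0.52 after the second centring). TXNIP, a glucose- and FOXO-responsive gene, had 0.76, 0.63 and 0.71, and G6PC1, the last enzyme of glucose output, had 0.66, 0.63 and 0.64. PCK1, the first committed enzyme of glucose synthesis, had 0.44, 0.39 and 0.45 (adjusted p = 0.0594), and IGFBP1, a strong FOXO target of liver, had 0.15, −0.01 and 0.31 (adjusted p = 0.574). The part that the lack of serum has in any result was not tested, and serum and lipid cannot be told apart if the untreated cells kept their serum.

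Liver identity genes were mostly positive as deposited. Of 51 hepatocyte serum proteins 30 (58.8%) were called positive and 2 (3.92%) negative, against 24.1% and 10.7% of all genes. The list median was 0.60 as deposited and −0.10 after the second centring. AFP, the fetal serum protein typical of this line, had ratios of 1.15, 0.75 and 0.88, and ALB, albumin, had 0.74, 0.42 and 0.65 (mean 0.60, adjusted p = 0.0268). CRP, the acute-phase protein, was called negative at −0.61, −0.94 and −0.94. Of 26 liver transcription factors 9 (34.6%) were called positive and 1 (3.85%) negative (median 0.33 as deposited, −0.38 after the second centring). CEBPA had 0.98, 0.97 and 0.58, and FOXA2 had 0.73, 0.18 and 0.74. NR1I3, the xenobiotic receptor CAR, was the negative one, at −1.92, −0.65 and −0.08, a value set largely by replicate 1.

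**Figure D5:**
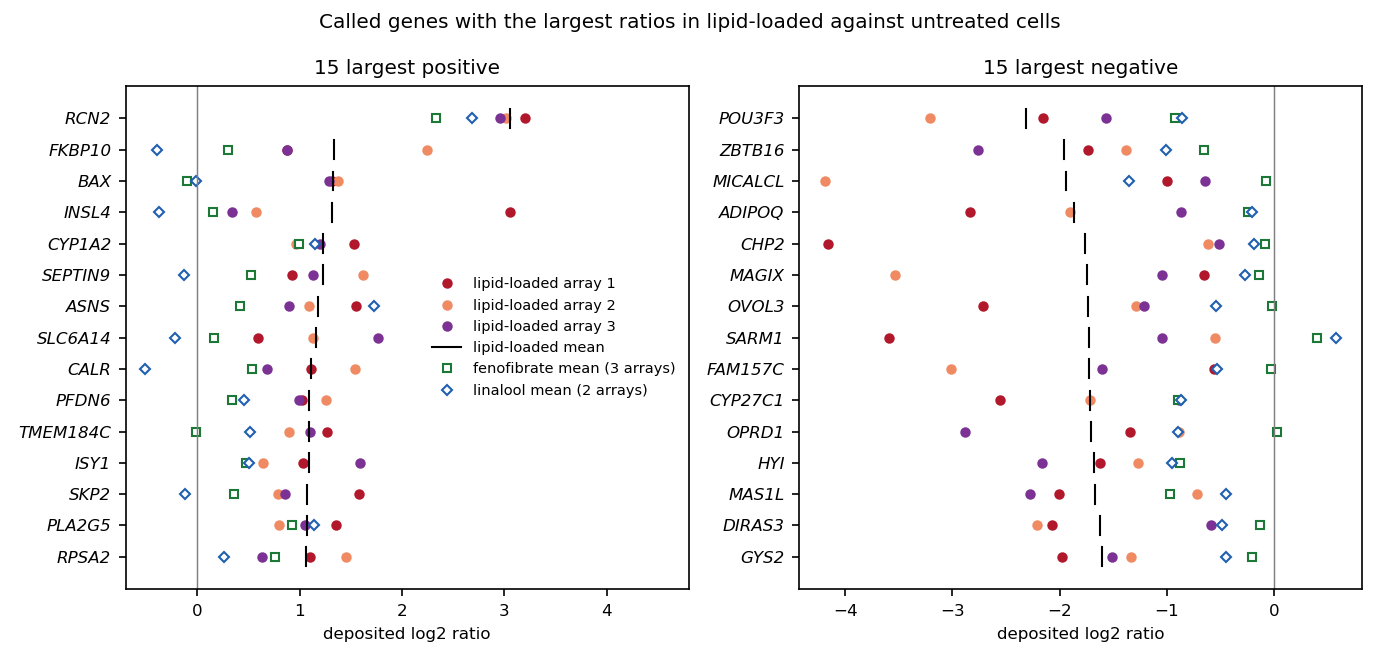
Deposited log2 ratio (x axis) of the 15 largest positive (left) and 15 largest negative (right) called genes that had the same sign on all arrays and in all probes, with the 3 lipid-loaded arrays as filled points, their mean as a black tick, and the fenofibrate (3 arrays) and linalool (2 arrays) means as open symbols. BAX has its 3 lipid-loaded arrays between 1.28 and 1.37 and both other means near 0. Other genes owe their mean largely to 1 array, among them INSL4, FKBP10, CHP2, SARM1, MAGIX and MICALCL.

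RCN2, whose product binds calcium in the reticulum, had the highest mean of all genes, 3.06. It came from a single probe, at 5.49, 5.46 and 5.33, that was also high on all other arrays (3.12 to 5.59), while its second probe gave 0.90, 0.57 and 0.58. CYP1A2, the cytochrome P450 of caffeine metabolism, had 1.53, 0.96 and 1.20 (mean 1.23, SE 0.17, adjusted p = 0.0135), with means of 1.00 with fenofibrate and 1.15 with linalool. With no dye swap, an effect of the dyes on RCN2 or CYP1A2 cannot be told apart from one of loading. INSL4, a placental relaxin relative, had a mean of 1.32 that rested on replicate 1, at 3.05 there against 0.57 and 0.33 on the others. Among the largest negative genes, POU3F3, a neural transcription factor, had −2.16, −3.21 and −1.57 (mean −2.31, SE 0.29). ZBTB16, a zinc finger repressor of several tissues, had −1.73, −1.38 and −2.76. GYS2, the glycogen synthase of liver, had −1.98, −1.33 and −1.51 (mean −1.60, SE 0.19, adjusted p = 0.0135). With fenofibrate GYS2 had −0.35, −0.12 and −0.13, and with linalool −0.77 and −0.12. Its lipid-loaded minus fenofibrate difference was −1.40 (SE 0.26, unadjusted p = 2.10e-04, adjusted p = 0.472).

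Lists of markers of other cell types had negative medians as deposited. The second centring lowers every mean by 0.71, so a negative median stays negative after it by construction. ADIPOQ, the adipocyte hormone adiponectin, had ratios of −2.84, −1.90 and −0.86 (mean −1.87, adjusted p = 0.0135), so its sign was the same on all arrays and its size was not. Of 12 adipocyte markers 1 (8.33%) was called positive and 3 (25%) negative, against 24.1% and 10.7% of all genes. Their median was −0.41 (−1.12 after the second centring). Of these 4 called genes, CIDEC, LPL and FABP4 are also counted in the lipid lists above. None of 15 neural markers was called positive and 5 (33.3%) were called negative (median −0.51, and −1.22 after the second centring). Of 16 stromal and endothelial markers 0 were called positive and 9 (56.25%) negative (median −0.57, and −1.28 after the second centring). Among the negative ones were CDH5, the endothelial cadherin, at −1.84, −0.98 and −0.51 and COL1A1, fibrillar collagen, at −0.61, −0.89 and −1.55. Of 17 blood and immune markers 1 (5.88%), the macrophage marker CD68, was called positive and 4 (23.5%) were called negative (median −0.26, and −0.96 after the second centring). Muscle and epidermal markers had 2 of 15 (13.3%) called positive and 4 (26.7%) negative (median −0.25, and −0.95 after the second centring). KRT10, a keratin of skin, was among the positive ones, at a mean of 0.70. The olfactory receptors had 15 of 296 (5.07%) called positive and 46 (15.5%) negative (median −0.34, and −1.05 after the second centring). Ratios carry no level, so whether these genes were expressed at all was not tested.

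Neither difference from the compound groups passed the test for any gene. The lipid-loaded minus fenofibrate difference had 0 genes called (0%), with 1934 at an unadjusted p under 0.05 and a smallest limma adjusted p of 0.472. The lipid-loaded minus linalool difference had 0 genes called (0%), with 2176 at an unadjusted p under 0.05 and a smallest adjusted p of 0.296. Trend and robust moderation gave 0 and 4 called genes for the same differences. The array of fenofibrate replicate 3 stood apart, correlating across genes with the mean of the other 7 at r = 0.127, and leaving it out gave 0 genes called in both. Among members described above, PLIN2 had ratios of 1.05, 0.93 and 0.86 in lipid-loaded cells, against 0.93, 0.97 and 0.40 with fenofibrate and 0.01 and −0.34 with linalool. Its lipid-loaded minus linalool difference was 1.11 (SE 0.27, unadjusted p = 0.00156, adjusted p = 0.325), and the difference from fenofibrate was 0.18 (SE 0.24, adjusted p = 0.742). CALR had a lipid-loaded minus linalool difference of 1.62 (SE 0.32, unadjusted p = 3.56e-04, adjusted p = 0.296), with −0.68 and −0.34 on the linalool arrays. ASNS had 1.74 and 1.73 with linalool and 0.84, 0.84 and −0.45 with fenofibrate, and neither difference passed. LPL and FABP4 had fenofibrate means of −0.02 and 0.06, and lipid-loaded minus fenofibrate differences of −0.94 and −0.72 (unadjusted p = 0.00649 and 0.00762, adjusted p = 0.472 for both). The smallest unadjusted p of the fenofibrate difference was that of HAUS7, a spindle protein gene, with −1.23, −1.13 and −1.02 in lipid-loaded cells, against 0.43, 0.15 and 0.66 with fenofibrate. That of the linalool difference was CYP24A1, the vitamin D hydroxylase, with −0.65, −0.59 and −0.25 in lipid-loaded cells, against 1.12 and 1.77 with linalool.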

How the data were processed

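Gene expression had been measured on 8 arrays with 2 colours from 8 µg of purified RNA per the labels' protocols, which describe oligo(dT) priming. The authors deposited log2 values, 1 per probe and array. How the arrays were scanned, background-corrected and normalized is not given in the sources used here. A check of these values followed: on all 8 arrays they equal the log2 of a ratio with 3 decimals less 1 constant per array (all values with a ratio between 0.2 and 2, within 0.0001), with constants of −0.59, −0.28 and −0.25 on the lipid-loaded arrays. Column medians were −0.0048, 0.04 and 0.058 (lipid-loaded), 0.0865, 0.0635 and −0.012 (fenofibrate) and 0.0452 and 0.0507 (linalool), so that scale and centring are known and the direction is not.

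Of 29187 probes 25053 had 1 symbol in the platform annotation, 0 had several and 4134 had none, and 24981 were matched to a current gene by identifier. Probes of a gene were averaged, which gave 18821 genes, of which 18819 were tested. All 8 arrays were fitted with limma 3.58.1 in R 4.3.3, with 1 coefficient per group. The mean of the lipid-loaded group was tested against 0 (two-sided). Its differences from the fenofibrate and linalool groups were tested in the same fit. Genes were called at a Benjamini-Hochberg adjusted p under 0.05 over all genes. SE values are those of the fit, with a median of 0.19, and the number of arrays limits the precision. An exact sign test over 3 arrays cannot give a two-sided p below 0.25 and was not used. The fit was tested on simulated data.

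The arrays compared, the gene lists and the tests were chosen with earlier results of these data known. Candidates for naming were the 15 largest called genes in each direction, set genes of each list and genes known from the earlier results. The 4 members of each list with the smallest p and its highest and lowest member were candidates too. So were the 3 highest and 3 lowest members of each family and the 5 smallest p of each difference. The text describes only part of these genes, by no fixed rule. CANX, CRELD2, PDIA6, ERO1B, SLC1A5, CEBPG, ATF3, CHAC1, FGF21 and SLC1A4 were named for their promoter sequence. Promoters came from RefSeq (GRCh38.p14). The replicate numbers were not used to pair the arrays in the main fit. Lipid-loaded and fenofibrate arrays of the same number correlated in their deviations at 0.14, −0.02 and 0.08. Those of different numbers ran from −0.14 to 0.07. Deviations from a mean of 3 arrays depend on each other, so these values cannot decide whether the numbers mark pairs. Alternatives covered the arrays in the fit, array weights, a replicate block, centring, scaling, quantile normalization, the summary over probes, the variance moderation and a size threshold.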

Additional observations from a re-analysis of the deposited data

How the results depend on the processing

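The count of called genes depended on the settings. Against 6555 genes (4537 positive, 2018 negative), leaving out each lipid-loaded array in turn gave 0 to 3087 calls (0 to 2160 positive, 0 to 927 negative), with 0 without replicate 1, 2010 without replicate 2 and 3087 without replicate 3. Arrays scaled to the same spread gave 0 (smallest adjusted p 0.0679), quantile normalization 2479 (1951 positive, 528 negative) and a required size of 1 gave 258 (25 positive, 233 negative). With 1853 genes of at least 2 probes that agreed in sign on the lipid-loaded arrays, 1818 were called (1345 positive, 473 negative), a set chosen on those signs, and 38 and 210 in the differences from fenofibrate and linalool. Trend and robust moderation called 4 genes in the linalool difference. Centring on broadly expressed genes, chosen after seeing the data, called 10759 (3 positive, 10756 negative). Leaving out fenofibrate replicate 3 gave 7772 calls (5353 positive, 2419 negative). The replicate block gave 6784 calls (4618 positive, 2166 negative), and 6197 of these were among the 6555. The other settings gave counts within 1.5 times the main one. Of 151 named genes followed across the settings, 119 were called, 93 of them positive. With fenofibrate replicate 3 left out, another 4 of the 151 were called. Without lipid-loaded replicate 1 and with arrays of the same spread none of the 119 passed. None of the 151 changed sign with a call under any setting but the second centring. There, among genes called under either centring, 30 with a positive deposited ratio had a negative one, 28 called positive as deposited and not called there, and 2 (PPARA and SREBF1) called there alone: KRT10 −0.0016, TXNRD1 −0.0059, TXNIP −0.0070, CANX −0.019, HSPA1A −0.030, APOB −0.032, LIPA −0.035, CIDEC −0.042, SLC1A5 −0.044, ACADVL −0.056, G6PC1 −0.062, CES1 −0.066, TRIB3 −0.076, PDIA4 −0.082, CRELD2 −0.088, AGPAT1 −0.093, CEBPG −0.10, ALB −0.10, PDIA6 −0.11, DGAT2 −0.15, FOXA2 −0.15, GPAM −0.18, ATF4 −0.19, FASN −0.19, HMGCS1 −0.20, DGAT1 −0.21, EHHADH −0.22, ATF6 −0.24, PPARA −0.38 and SREBF1 −0.46. The numerator of the ratio, the serum state of the untreated cells and the signal over background of the probes limit what these ratios show. So does the lack of a dye swap.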

Other observations

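Gene families whose members are mostly restricted to single tissues had medians below that of all genes (−0.0032) on the deposited scale. None of 65 keratin-associated protein genes, which build hair, was called positive and 18 (27.7%) were called negative (median −0.41, and −1.11 after the second centring). None of 29 HOX genes, the body-axis regulators, was called positive (median −0.32, and −1.03 after the second centring). Of them 4 (13.8%) were called negative, a share near the 10.7% of all genes. None of 20 taste receptor genes was called positive and 5 (25%) were called negative (median −0.32, and −1.03 after the second centring). The 472 ZNF genes had 57 (12.1%) called positive and 31 (6.57%) negative, below the 24.1% and 10.7% of all genes. Their median was −0.05, and −0.76 after the second centring. The 46 mitochondrial carriers of the SLC25 family had 18 (39.1%) called positive and 1 (2.17%) negative (median 0.33 as deposited and −0.38 after the second centring). Probes with no gene symbol numbered 4134, of which 3052 (73.8%) had a negative mean ratio (median −0.28).

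Cytochrome P450 and interferon lists had shares of calls near those of all genes (24.1% positive and 10.7% negative). Of 36 cytochrome P450 genes 7 (19.4%) were called positive and 3 (8.33%) negative (median −0.19, and −0.90 after the second centring). CYP27A1, which hydroxylates sterols, had ratios of 1.02, 0.78 and 0.69, while CYP2S1 had −1.26, −0.90 and −0.73 and CYP26A1, which degrades retinoic acid, had −0.69, −1.02 and −0.64. CYP3A4, the main drug-metabolising enzyme of adult liver, was not called (mean −0.52, limma adjusted p = 0.0790). Of 44 interferon and inflammation genes 12 (27.3%) were called positive and 6 (13.6%) negative (median −0.01, and −0.72 after the second centring). ICAM1, an adhesion molecule induced by NF-κB, had 1.01, 0.69 and 1.20, whereas OASL, an interferon-induced gene, had −1.55, −1.44 and −0.68 and IL1A, an interleukin gene, had −0.96, −0.72 and −0.73. Of 60 lysosome and autophagy genes 36 (60%) were called positive and 5 (8.33%) negative (median 0.55 as deposited and −0.16 after the second centring). PSAP, the precursor of the saposins that aid lysosomal lipid breakdown, had 0.94, 0.82 and 0.67. ATP6V0E1, a subunit of the proton pump of lysosomes, was the lowest of the list at −1.31, −1.18 and −0.86 and was called.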
